A study of Zea mays with 12 samples.

Results

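The genes described here start between 200 and 290 Mb on chromosome 1 of maize, in the coordinates of the deposited tables, which follow the B73 RefGen_v3 build per the submitters' processing notes. A gene model was taken as a member when its mean deposited normalized signal was at least 17 in 1 or more of the 4 groups of the study. This gave 1337 members among 2232 models in the segment, and 41430 models in all. The same level was reached by 2372 models on the rest of chromosome 1. The segment was chosen by line differences seen in these same libraries, so its counts of differing genes are given as a description, without a test of the segment itself.

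RNA of whole seeds was sequenced from wild type Q319 and from transgenic line L100, at 10 and at 15 days after pollination (DAP). Each of the 4 groups, wild type 10 DAP, wild type 15 DAP, L100 10 DAP and L100 15 DAP, had 3 libraries. L100 is 1 transgenic line, and neither its transgene nor the promoter is named by the labels, so no targeted gene could be checked. Nothing in the labels ties the libraries of a group to separate plants, so the spread behind each p-value may be technical.

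As background, the distal part of this long chromosome arm carries loci long known in maize genetics, among them the alcohol dehydrogenase gene adh1, the meristem homeobox gene kn1 and the embryo globulin genes glb1 and glb2. Genes that lie close together on a chromosome are inherited together, while each is usually transcribed from its own promoter. In a filling seed the endosperm stores starch and zein proteins, and the embryo stores oil and globulins, so a gene used in one compartment is read here within a mixture. A lower level in whole seeds can come from fewer cells of a type or from less RNA per cell, and these cannot be told apart.

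Libraries held 14014035 to 22370566 counts, of which models in the segment held 4.84% to 6.19%. Endosperm markers fitted the labelled tissue and stage, with a summed level of 2733 to 12499 counts per 1000000 library counts (CPM) at 10 DAP and 75405 to 123429 CPM at 15 DAP, the lowest being L100 10 DAP replicate 2. Over the tested members, log2 levels of libraries of the same group correlated at 0.963 to 0.985. The highest value was that of L100 15 DAP replicates 1 and 2, whose replicate 3 correlated with them at 0.964 and 0.963. Levels below are CPM after TMM scaling, and fold changes are log2 of L100 over wild type with their standard error (SE).

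Of the 1337 members, 1327 passed the filter on low counts and were tested. At 10 DAP, 163 members (12.3%) differed between the lines at an adjusted p of at most 0.05 by edgeR's quasi-likelihood test, where 3% of all 24941 tested genes did. Of these members 94 were higher in L100 (1.76% of all tested genes were) and 69 were lower (1.24%). At 15 DAP, 209 members (15.7%) differed, against 6.66% of all tested genes, with 107 higher (3.57% of all tested genes) and 102 lower (3.09%). On the rest of chromosome 1 at the same level, the calls came to 2.21% of 2358 tested genes at the earlier stage and to 8.74% at the later one. Higher members outnumbered lower ones at 10 DAP, while the counts were close at 15 DAP, and the median log2 fold change over all tested members was -0.01 at 10 DAP and -0.02 at 15 DAP. Among the 1113 members at the level in all 4 groups, 62 were higher and 55 lower at 10 DAP. At 15 DAP 68 of these were higher and 90 lower. The count of members called at 10 DAP was 97, 92 and 103 without wild type 10 DAP replicate 1, 2 and 3. The count at 15 DAP was 124 and 119 without L100 15 DAP replicate 1 and 2, and 110 without wild type 15 DAP replicate 2.

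Many of these members differed at both stages, which were measured in separate libraries but fitted with a shared estimate of the spread. In all, 87 members were called at both stages (6.56%, against 0.942% of all tested genes and 0.721% on the rest of chromosome 1). All 87 kept their direction, 55 higher in L100 (0.633% of all tested genes) and 32 lower (0.309%), and so did the 17 on the rest of chromosome 1. Among members at the level in all 4 groups, 29 were higher and 29 lower. Those at the level in 1 to 3 groups gave 26 higher and 3 lower. The choice of members by level favoured differing genes there, so the lean towards higher is no support. The 87 made up 37% of the 235 genes called at both stages in the same direction in the whole table, while members were 5.32% of the tested genes. Of the 87, 43 were called at both stages in each of the 12 fits that left out 1 library. In 144 members (10.9%) every L100 library of both stages lay above or below every wild-type library, as in 2.32% of all tested genes. The share was 8.54% among members at the level in all 4 groups. It was 22.9% among those at the level in 1 to 3 groups, where the choice by level favoured such genes, so that share is no support.

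The differing members were not spread evenly along the segment. They lay in 2 blocks with a stretch between them in which few genes differed. The limits of the blocks were drawn after the values were seen. From 205 to 230 Mb, 64 of 376 tested members were called at 10 DAP (17%) and 67 at 15 DAP (17.8%), with 37 called at both. Of these 37, 28 were higher in L100 and 9 lower. From 230 to 250 Mb, 4 of 233 were called at 10 DAP (1.72%) and 16 at 15 DAP (6.87%), and none at both. From 250 to 290 Mb, 93 of 656 were called at 10 DAP (14.2%) and 120 at 15 DAP (18.3%), with 49 called at both, 26 higher and 23 lower.

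**Figure D1:**
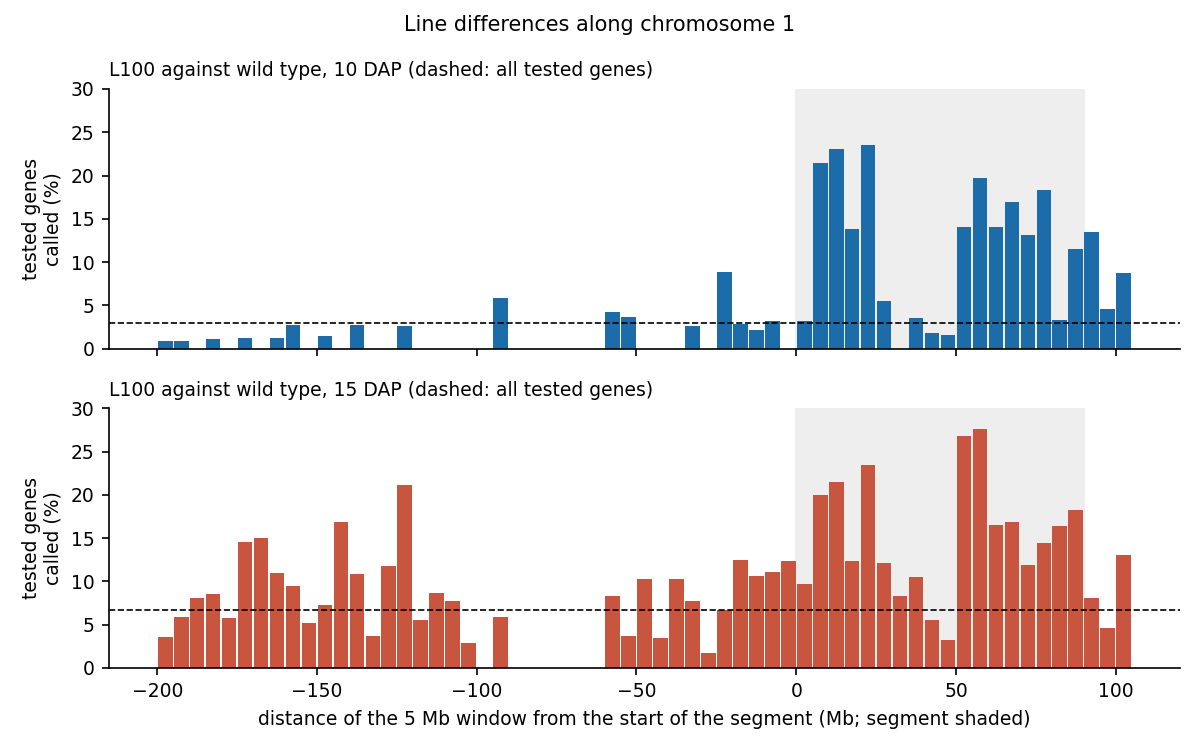
Share of tested genes called between the lines in 5 Mb windows of chromosome 1, against the distance of the window from the start of the segment (Mb), at 10 DAP (upper) and 15 DAP (lower). Bars are windows with at least 20 tested genes, windows with fewer genes or no call show no bar, the dashed lines are the shares over all tested genes (3% and 6.66%), and the shaded segment holds 2 groups of high bars with low bars between them. At 15 DAP single windows outside the shaded segment also had high bars, up to 21.1%.

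In 5 Mb windows some edges of the blocks were sharper than others. At the left edge the share called at 10 DAP went from 3.23% of 62 tested members (200 to 205 Mb) to 21.4% of 70 in the next window. The highest share at 10 DAP, 23.5% of 85, lay at 220 to 225 Mb, and it was 5.49% of 91 at 225 to 230 Mb and 0% of 60 at 230 to 235 Mb. It went from 1.61% of 62 at 245 to 250 Mb to 14.1% of 71 at 250 to 255 Mb. At 15 DAP the left block ended more gradually, with 23.5%, 12.1%, 8.33% and 10.5% in the 4 windows from 220 to 240 Mb, and the share went from 3.23% to 26.8% at 250 Mb. The highest shares at 15 DAP, 26.8% and 27.6%, were in the 2 windows from 250 to 260 Mb. On the rest of chromosome 1, windows with at least 20 tested genes reached 13.5% at 10 DAP and 21.1% at 15 DAP. Their medians were 0.88% and 8.11%, against 13.45% and 15.4% in the segment. The highest of them at 15 DAP exceeded several windows of the blocks. Within the right block, the window from 280 to 285 Mb had 3.28% of 61 called at 10 DAP but 16.4% at 15 DAP.

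The longest run without a member called at both stages reached from GRMZM5G826174 (chromosome 1, 226281144 to 226281434) to Maize_newGene_376 (251133961 to 251139619). It was 24.9 Mb long and held 318 tested members, of which 6 were called at 10 DAP and 25 at 15 DAP. At 10 DAP the right block did not end at the segment's limit, where the share was 11.5% in the last window inside and 13.5% in the first outside. At 15 DAP the share fell there, from 18.3% in the last window inside to 8.11% in the first outside. Beyond 290 Mb, 23 of 266 tested genes were called at 10 DAP (8.65%), 18 at 15 DAP (6.77%) and 8 at both. Below 200 Mb the shares were 1.39% and 8.99% of 2092 tested genes, with 9 called at both stages, so at 15 DAP the rest of the chromosome held line differences that were mostly absent from the calls at 10 DAP.

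**Figure D2:**
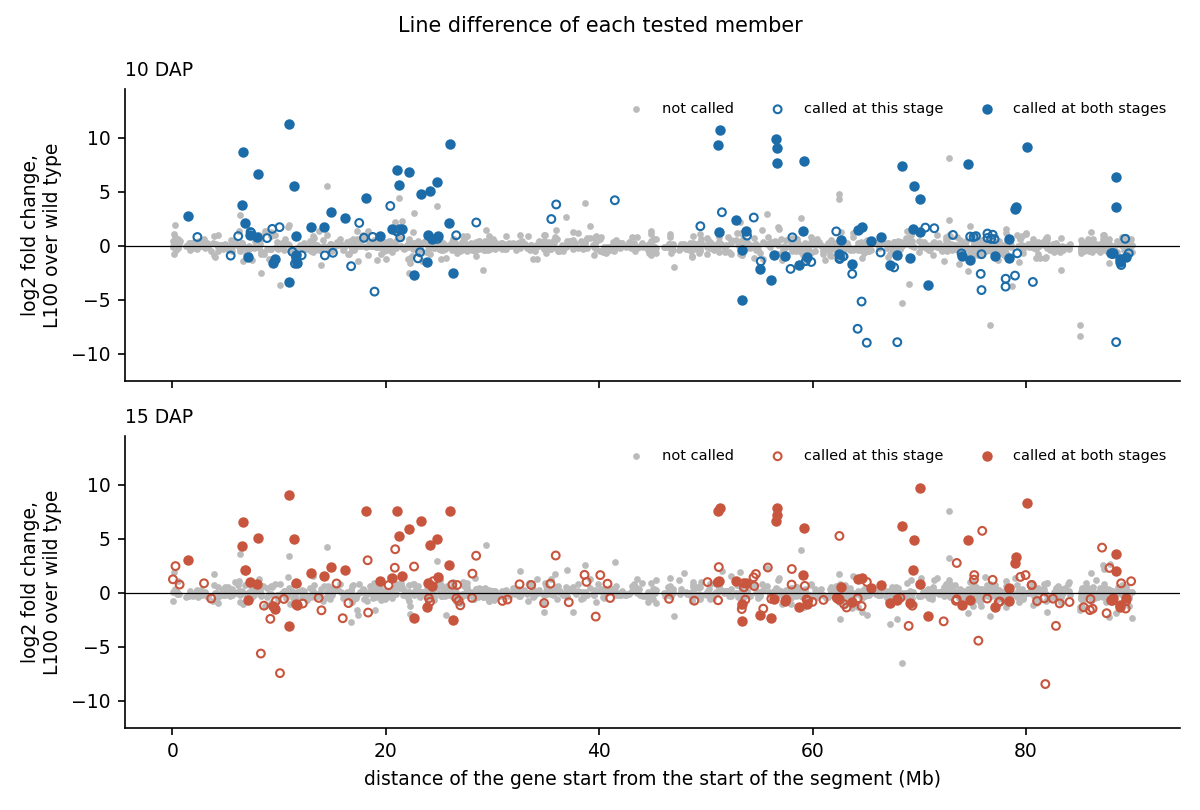
Log2 fold change (L100 over wild type) of each of the 1327 tested members against the distance of its start from the start of the segment (Mb), at 10 DAP (upper) and 15 DAP (lower). Filled points are the 87 members called at both stages, open points are members called at the stage of the panel only and grey points were not called, and no filled point lies in the stretch between the blocks.

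Across members, fold changes at the 2 stages correlated at Pearson r = 0.84 in the left block (n = 376), 0.75 in the right block (n = 656) and 0.41 in the stretch between them (n = 233). Over all members r was 0.76, and over the rest of chromosome 1 it was 0.55. Over members at the level in all 4 groups r was 0.6. Spearman rank correlations were lower, at 0.6, 0.59 and 0.23 in the same 3 stretches. They were 0.53 over all members and 0.24 over the rest of chromosome 1. These are descriptions across genes that share the same libraries within a stage, with no libraries in common between the stages. By contrast, the change from 10 to 15 DAP had a similar share of calls among members and among all genes, with 33.3% of members called in wild type and 26.7% in L100, against 31.4% and 24.9% of all tested genes.

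**Figure D3:**
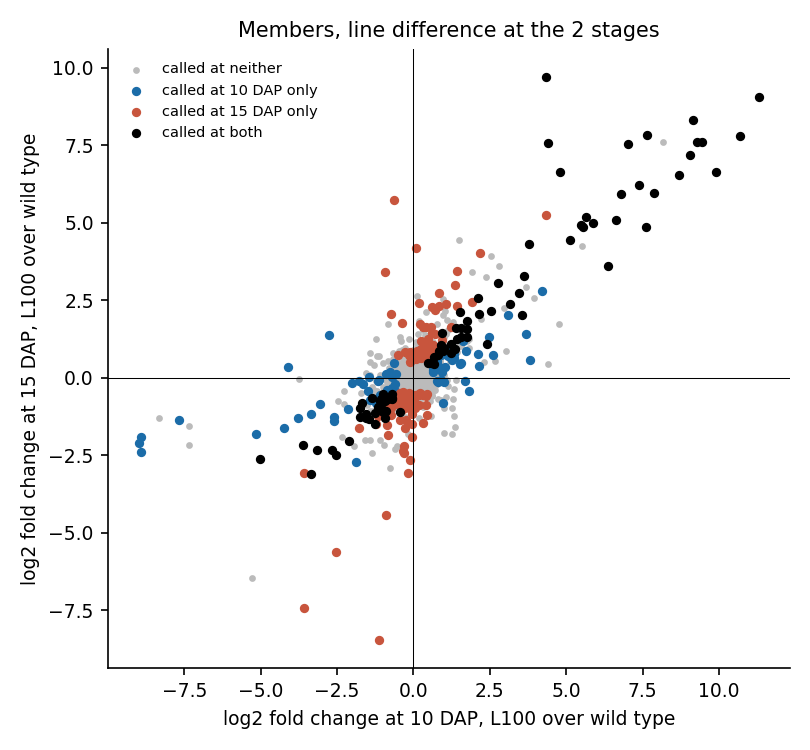
Log2 fold change (L100 over wild type) at 15 DAP against that at 10 DAP for each tested member. Black points are the 87 members called at both stages, all lower in L100 at both stages or higher at both, and coloured points are members called at 1 stage only.

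Among the 138 tested members with an informative name in the reference table, 18 were called at 10 DAP, 29 at 15 DAP and 11 at both. The 11 are described first, by function, and those outside the naming rule were chosen after their values were seen. In lipid metabolism, fad6 (GRMZM2G078569, 211664472 to 211671955), the plastid omega-6 fatty acid desaturase gene, was lower in L100. It read 149, 147 and 158 CPM in the wild-type libraries at 10 DAP and 39.4, 54.5 and 58.7 in L100, and 84.1, 95.1 and 109 against 39.5, 38.8 and 48.6 at 15 DAP. Every L100 library lay below every wild-type library, and the log2 fold change was -1.57, SE 0.16, adjusted p = 0.00035 at 10 DAP and -1.18, SE 0.16, adjusted p = 0.0021 at 15 DAP.

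The gene lox3 (GRMZM2G109130, 264266297 to 264271192), which encodes a lipoxygenase, read 81.4, 94.7 and 128 CPM in wild type and 241, 273 and 309 CPM in L100 at 10 DAP. Its levels at 15 DAP were 97.1, 58.7 and 84.1 against 198, 220.2 and 155 CPM. The lines did not overlap at either stage, and the fold change was 1.44, SE 0.22, adjusted p = 0.005 at 10 DAP and 1.26, SE 0.22, adjusted p = 0.0072 at 15 DAP. Its neighbour lox4 (GRMZM2G109056, 264275245 to 264290341), a close relative, had means of 16.7 and 16.8 CPM at 10 DAP and did not pass (log2 fold change 0.01, SE 0.24, adjusted p = 0.99). How reads matching both copies were counted is unknown here.

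The gene opr7 (GRMZM2G148281, 207946556 to 207950001) encodes a 12-oxo-phytodienoic acid reductase of jasmonate synthesis and lies in the left block. Of other members of that pathway, the allene oxide synthase models aos4 (GRMZM2G072653) and aos3 (GRMZM2G376661) had log2 fold changes of -1.09 and -0.34 at 10 DAP and of -0.99 and -0.53 at 15 DAP, and did not pass (adjusted p = 0.42 and 0.79, then 0.46 and 0.64). The level of opr7 was 29.6, 31.3 and 28.7 CPM in wild type and 53, 53.7 and 52.6 in L100 at 10 DAP, and 23.9, 31.3 and 29 against 49.5, 51.6 and 50.9 at 15 DAP. All L100 libraries were above all wild-type libraries, with a fold change of 0.83, SE 0.11, adjusted p = 0.002 and 0.85, SE 0.11, adjusted p = 0.0016. The aquaporin-family gene nip3a (GRMZM2G176209, 223907672 to 223910808) was higher in L100 at both stages as well. Its levels were 70.1, 73.2 and 76.7 CPM against 122, 144 and 161 CPM at 10 DAP (log2 fold change 0.96, SE 0.13, adjusted p = 0.003). At 15 DAP it had fallen in both lines, to 23.4, 23.8 and 26.1 CPM against 47.7, 49.3 and 37.1 CPM, and the lines still did not overlap (log2 fold change 0.87, SE 0.14, adjusted p = 0.0041).

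**Figure D4:**
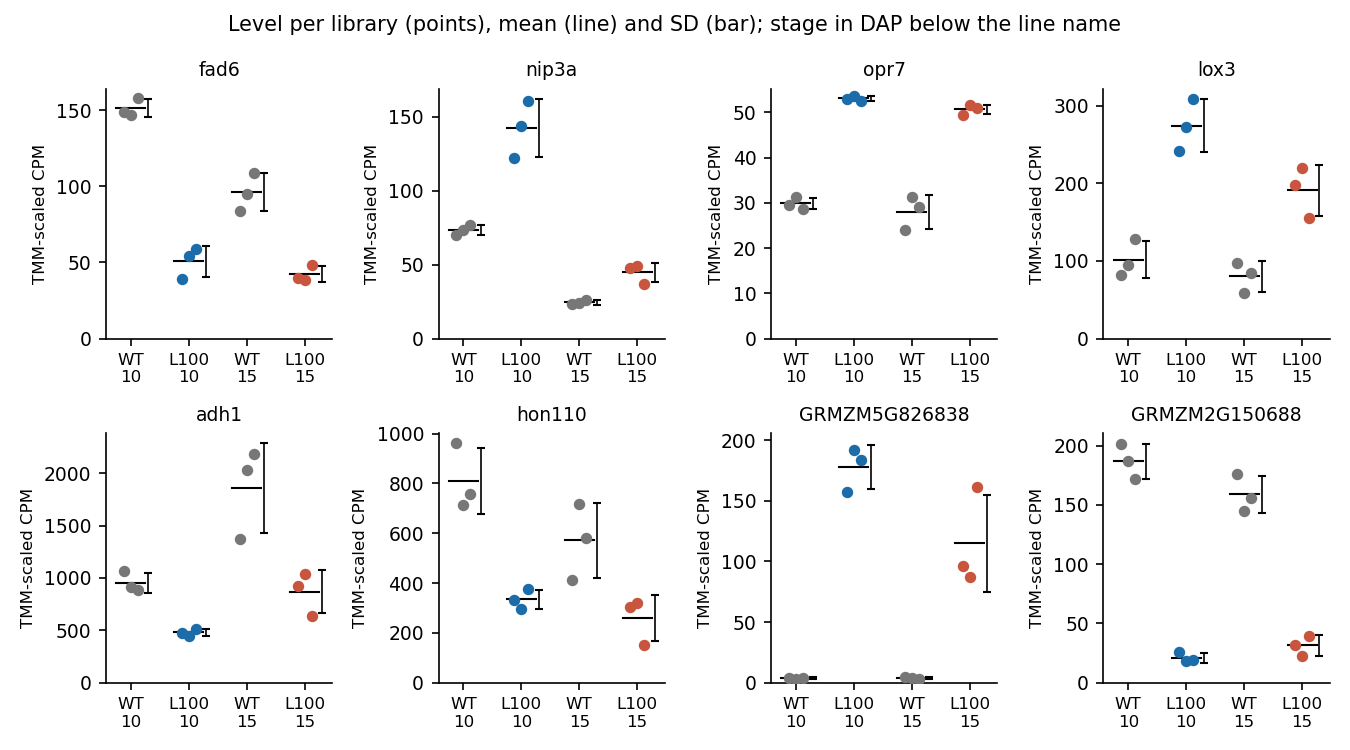
Levels in TMM-scaled CPM (linear axes from 0) of 8 members in each of the 12 libraries. Points are libraries, horizontal lines group means and bars the SD of 3 libraries, and in each panel every L100 library of a stage lies on one side of every wild-type library of that stage.

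The cinnamoyl-CoA reductase gene cncr1 (GRMZM2G131205, 211567237 to 211572953), of lignin synthesis, was higher in L100 at 10 DAP (74.2 ± 5.44 CPM in wild type and 139 ± 23 CPM in L100, a log2 fold change of 0.91, SE 0.18, adjusted p = 0.021) and at 15 DAP (77.6 ± 19.9 CPM in wild type and 144 ± 7.84 CPM in L100, a log2 fold change of 0.89, SE 0.18, adjusted p = 0.015). Its call at 10 DAP ended without L100 10 DAP replicate 2 or any 1 of the 3 wild-type 10 DAP libraries (adjusted p = 0.065 to 0.11), and that at 15 DAP without L100 15 DAP replicate 1 (adjusted p = 0.052). Its neighbour in the table, GRMZM2G131434 (211574830 to 211578418), moved the other way, with a fold change of -0.89, SE 0.12, adjusted p = 0.003 and -1.06, SE 0.13, adjusted p = 0.0011. The gene MFSP (GRMZM2G066801) was higher, with 2.16 ± 0.503 CPM in wild type and 11.5 ± 2.4 CPM in L100 at 10 DAP (log2 fold change 2.41, SE 0.28, adjusted p = 0.00079) and 2.61 ± 0.731 CPM in wild type and 5.56 ± 0.571 CPM in L100 at 15 DAP (log2 fold change 1.09, SE 0.27, adjusted p = 0.034). Its call at 15 DAP ended without L100 15 DAP replicate 1 or 2 or wild type 15 DAP replicate 1 or 3 (adjusted p = 0.077 to 0.11), reached 0.05 without L100 15 DAP replicate 3, and ended in a fit of the 15 DAP libraries alone (adjusted p = 0.064).

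The member with the highest level among those called at both stages was adh1 (GRMZM2G442658, 274050423 to 274054108), whose alcohol dehydrogenase serves fermentation when oxygen is short. It read 1064, 917 and 883 CPM in wild type against 478, 448 and 515 CPM in L100 at 10 DAP, and 1372, 2027 and 2179 against 923, 1039 and 639.8 CPM at 15 DAP. Each stage showed about the same gap without overlap, with a fold change of -0.99, SE 0.21, adjusted p = 0.027 and -1.10, SE 0.21, adjusted p = 0.011. The call at 10 DAP ended without L100 10 DAP replicate 1 or 2 or any 1 of the 3 wild-type 10 DAP libraries (adjusted p = 0.058 to 0.099). The call at 15 DAP held in each of the 12 fits that left out a library. The separately modelled gene adh1C (GRMZM2G361662) close by had 16.6 ± 1.86 CPM in wild type and 15.7 ± 2.43 CPM in L100 at 10 DAP and was not called at either stage (adjusted p = 0.8 and 0.52).

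Among regulators and chromatin genes called at both stages, MYB167 (GRMZM2G037650), a MYB factor, was higher and 3 genes near the right end of the segment were lower. MYB167 had 5.6 ± 0.774 CPM in wild type and 11.3 ± 2.1 CPM in L100 at 10 DAP (log2 fold change 1.01, SE 0.21, adjusted p = 0.025) and 6.5 ± 1.26 CPM in wild type and 12.7 ± 1.66 CPM in L100 at 15 DAP (log2 fold change 0.97, SE 0.21, adjusted p = 0.019). Its calls ended without L100 10 DAP replicate 1 or 2 or any wild-type 10 DAP library (adjusted p = 0.064 to 0.13), and without L100 15 DAP replicate 1 or 2 or wild type 15 DAP replicate 1 or 3 (adjusted p = 0.052 to 0.072). The call at 10 DAP also ended in a fit of the 10 DAP libraries alone (adjusted p = 0.06). The lines did not overlap at either stage.

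The linker histone gene hon110 (GRMZM2G164020, 288803910 to 288805585) read 961, 713 and 756 CPM in wild type against 333, 297 and 375 CPM in L100 at 10 DAP. At the later stage the values were 414, 716 and 583 against 305, 321 and 153 CPM. The fold change was -1.27, SE 0.27, adjusted p = 0.031 and -1.14, SE 0.27, adjusted p = 0.031, with no overlap at either stage. Both calls were close to the threshold. The one at 10 DAP ended without L100 10 DAP replicate 1 or 2, wild type 15 DAP replicate 3 or any wild-type 10 DAP library (adjusted p = 0.051 to 0.11), and the one at 15 DAP ended or reached the threshold without any 1 of the 3 L100 15 DAP libraries, wild type 10 DAP replicate 2 or 3 or wild type 15 DAP replicate 2 or 3 (adjusted p = 0.05 to 0.11). The latter also ended with library totals (adjusted p = 0.059) and in a fit of the 15 DAP libraries alone (adjusted p = 0.099). The next gene, GRMZM2G163912 (288808620 to 288813229), fell alongside it by 1.54 (SE 0.20, adjusted p = 0.0018) and 1.30 (SE 0.20, adjusted p = 0.0037) on the log2 scale, and these calls held without any 1 library.

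The gene ohp1 (GRMZM2G016150) encodes a bZIP protein that pairs with the endosperm regulator Opaque2. It had 43.6 ± 5.33 CPM in wild type and 27.1 ± 0.982 CPM in L100 at 10 DAP (log2 fold change -0.69, SE 0.11, adjusted p = 0.0085) and 46.2 ± 1.17 CPM in wild type and 32 ± 2.75 CPM in L100 at 15 DAP (log2 fold change -0.53, SE 0.11, adjusted p = 0.02). The basic helix-loop-helix gene bHLH17 (GRMZM2G137358) had 22.7 ± 1.39 CPM in wild type and 11.2 ± 0.903 CPM in L100 at 10 DAP (log2 fold change -1.01, SE 0.13, adjusted p = 0.0014) and 17.5 ± 0.811 CPM in wild type and 12.1 ± 0.938 CPM in L100 at 15 DAP (log2 fold change -0.52, SE 0.13, adjusted p = 0.031). In both genes all L100 libraries were below all wild-type libraries of the stage. The ohp1 call at 10 DAP ended without wild type 10 DAP replicate 2 (adjusted p = 0.052), and its call at 15 DAP reached or passed 0.05 without L100 15 DAP replicate 2 or 3 or any wild-type 15 DAP library (adjusted p = 0.05 to 0.058). The bHLH17 call at 15 DAP ended without any 1 of 9 libraries, namely all but the 3 of L100 10 DAP (adjusted p = 0.051 to 0.099). It also ended with library totals (adjusted p = 0.08), with no filter (adjusted p = 0.067) and in a fit of the 15 DAP libraries alone (adjusted p = 0.082), and the ohp1 call at 15 DAP ended with library totals (adjusted p = 0.071).

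The largest rises belonged to genes without an informative name that were at or near 0 in wild type. GRMZM5G817046 (210964374 to 210965747) had 0 counts in all wild-type libraries at 10 DAP and 15.7, 19.7 and 21.1 CPM in L100. Set against a floor of 3 counts per library, this is a level at least 102-fold higher (adjusted p = 7.6e-06). Its levels at 15 DAP were 0.0573, 0 and 0 against 12.1, 16.3 and 13.1 CPM (adjusted p = 1.7e-05). Its neighbour on the other strand, GRMZM2G055143 (210950039 to 210951802), which ends 12572 bases away, went the opposite way.

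GRMZM2G055143 read 8.66, 10.2 and 8.77 CPM in wild type and 0.925, 0.268 and 1.52 CPM in L100 at 10 DAP, and 12, 13.6 and 13.7 against 1.63, 1.11 and 1.84 CPM at 15 DAP. The lines were far apart at both stages (log2 fold change -3.34, SE 0.42, adjusted p = 0.0015 and -3.10, SE 0.41, adjusted p = 0.0019), and the calls of both genes held without any 1 library. In the left block, GRMZM2G096303 had 0.117 ± 0.109 CPM in wild type and 14.3 ± 3.25 CPM in L100 at 10 DAP (log2 fold change 6.80, SE 0.52, adjusted p = 3.8e-05). GRMZM5G894200 had 0.223 ± 0.0268 CPM in wild type and 11.7 ± 1.48 CPM in L100 at that stage (log2 fold change 5.66, SE 0.54, adjusted p = 0.00026). Both were called at 15 DAP as well, at log2 fold changes of 5.93 and 5.20.

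In the right block, GRMZM2G044236 (251311104 to 251314633) had 0 counts in wild type and 13, 13.1 and 11 CPM in the transgenic line at 10 DAP, which is at least 67.1-fold higher (adjusted p = 8.2e-06). At the later stage the values were 0, 0.0617 and 0.0505 against 10.4, 10.7 and 8.82 CPM (adjusted p = 2e-05). Before it on the chromosome, Maize_newGene_376 also had 0 counts in wild type at 10 DAP and 4.63, 6 and 3.4 CPM in the transgenic line, which is at least 25.4-fold higher.

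A run of 3 such models lay further along. GRMZM2G163796 (256578503 to 256581035) had 0 counts in wild type at 10 DAP and 5.49, 9.43 and 6.48 CPM in the transgenic line, which is at least 38.8-fold higher (adjusted p = 0.00039). GRMZM2G463318 (256618690 to 256619588) and AC212186.3_FG011 (256619256 to 256619696) were at 0 in wild type too, and at 2.02, 6 and 3.92 and at 0.925, 2.04 and 1.46 CPM in L100. These last models overlap on opposite strands and the strand setting of the counts is unknown here, so their reads cannot be told apart. All 3 were called again at 15 DAP (adjusted p = 0.0011, 0.0013 and 0.0039).

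GRMZM5G826838 (269549711 to 269572174) was the member with the smallest p at both stages, chosen for this after its values were seen. It read 4.3, 2.81 and 4.17 CPM in wild type against 157, 192 and 184 CPM in L100 at 10 DAP. At 15 DAP the values were 4.59, 4.01 and 3.33 against 96, 87.4 and 161 CPM. The wild-type libraries were all under 5 CPM and the L100 libraries all above 80, and the fold change was 5.55, SE 0.27, adjusted p = 1.9e-06 and 4.85, SE 0.27, adjusted p = 1.2e-05. In the other direction, GRMZM2G150688 (256145786 to 256158289) read 201, 187 and 172 CPM in wild type against 25.7, 18.2 and 18.8 CPM in L100 at 10 DAP. It read 176, 145 and 156 against 32.2, 22.6 and 39.7 CPM at 15 DAP, again without overlap (log2 fold change -3.16, SE 0.21, adjusted p = 1e-05 and -2.34, SE 0.20, adjusted p = 0.00014). Both genes were called in every fit that left out a library.

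Models with 0 counts in one line were few. At 10 DAP, 15 members had 0 counts in all 3 wild-type libraries, 4 of them with at least 5 CPM in L100, and 8 had 0 counts in all 3 L100 libraries, none with 5 CPM in wild type. At 15 DAP the numbers were 6 and 1. On the rest of chromosome 1, with 2372 models at the level against 1337 members, they were 14 and 10 at 10 DAP, and 8 and 5 at 15 DAP. The lean towards 0 counts in wild type was thus present there too, but smaller. A member at 0 counts in one group reached the level only through another group, so these counts are no support. Of the 94 members named Maize_newGene, models whose origin is not stated, 93 were tested, and 10 of them (10.8%) were called at both stages, all higher in L100. Of 1583 tested Maize_newGene models at the level elsewhere, 29 (1.83%) were called at both stages, 23 of them higher. Members called at both stages lay side by side, with no other tested member between them, in 17 pairs, 13 of the same direction and 4 of opposite direction. The 13 include the overlapping GRMZM2G463318 and AC212186.3_FG011, whose reads cannot be told apart. No such count was taken for other genes, so nothing particular to the segment is read from it.

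In the stretch between the blocks, the named members that differed did so at 15 DAP. The cytosolic malate dehydrogenase gene mdh4 (GRMZM2G415359, 231398284 to 231403847) read 599, 615 and 617 CPM in wild type and 530.1, 745 and 611 CPM in L100 at 10 DAP, where the lines overlapped. At 15 DAP it read 223, 218 and 229.7 against 149, 138 and 147 CPM, with every L100 library lower (log2 fold change -0.63, SE 0.13, adjusted p = 0.016). The mitochondrial chaperonin gene mtcpn60II (GRMZM2G416120, 234834696 to 234840213) had 145 ± 18.9 CPM in wild type and 152 ± 20.7 CPM in L100 at 10 DAP and 141 ± 13.5 CPM in wild type and 72.7 ± 8.53 CPM in L100 at 15 DAP (log2 fold change -0.96, SE 0.15, adjusted p = 0.0037). The mdh4 call ended without L100 15 DAP replicate 2 (adjusted p = 0.066), and that of mtcpn60II, which is outside the naming rule, held without any 1 library.

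The classical gene bz2 (GRMZM2G016241), which acts in anthocyanin transport, and an1 (GRMZM2G081554), of gibberellin synthesis, also lie in this stretch. They had 5.69 ± 1.35 CPM in wild type and 4.29 ± 1.49 CPM in L100 and 5.63 ± 1.69 CPM in wild type and 7.24 ± 1.72 CPM in L100 at 10 DAP and did not pass (adjusted p = 0.48 and 0.45). At 15 DAP their adjusted p was 0.57 and 0.45. The gene id1 (GRMZM2G011357), known from flowering, read at most 2.35 CPM in a library and was not called (adjusted p = 0.49 and 0.57).

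Over the segment, 18 classical long-arm models were tested. At 10 DAP 3 were higher in L100, 1 was lower and 14 did not pass, with a median log2 fold change of 0.13, and at 15 DAP none was higher and 2 were lower, with a median of -0.07. The 3 higher genes were gt1, kn1 and br2. The HD-ZIP gene gt1 (GRMZM2G421491, 276882981 to 276887064), which represses axillary bud growth, read 107, 128 and 125 CPM in wild type and 257, 228 and 243 CPM in L100 at 10 DAP (log2 fold change 1.02, SE 0.12, adjusted p = 0.0012). The lines did not overlap, and at 15 DAP the values were 156, 204 and 176 against 230.2, 235 and 225 CPM and did not pass (log2 fold change 0.36, SE 0.12, adjusted p = 0.1).

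The homeobox gene kn1 (GRMZM2G017087, 271407525 to 271415210) read 4.11, 5.08 and 5.96 CPM in wild type and 10.6, 17.7 and 18.3 CPM in L100 at 10 DAP (log2 fold change 1.62, SE 0.32, adjusted p = 0.022). Its lines did not overlap at 15 DAP either, at 2.92, 1.23 and 2.98 against 4.32, 5.7 and 6.21 CPM, where it missed the threshold (log2 fold change 1.17, SE 0.33, adjusted p = 0.057). The auxin transporter gene br2 (GRMZM2G315375) had 72.7 ± 1.79 CPM in wild type and 127 ± 15 CPM in L100 at 10 DAP (log2 fold change 0.81, SE 0.16, adjusted p = 0.02) and 64.5 ± 2.16 CPM in wild type and 58.7 ± 14 CPM in L100 at 15 DAP (adjusted p = 0.67). The kn1 call ended without L100 10 DAP replicate 2 or any wild-type 10 DAP library (adjusted p = 0.054 to 0.095), and that of br2 without L100 10 DAP replicate 1 or 2 or any wild-type 10 DAP library (adjusted p = 0.066 to 0.11).

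Of 19 tested transcription regulators, matched by the start of their names, 2 were higher and 1 lower at 10 DAP, and 1 higher and 2 lower at 15 DAP, with medians of 0.02 and 0.11. Besides MYB167 and bHLH17, HB112 (GRMZM2G003304), a homeobox gene, had 31.2 ± 1.86 CPM in wild type and 55 ± 8.5 CPM in L100 at 10 DAP (log2 fold change 0.82, SE 0.12, adjusted p = 0.005), and Hsf26 was lower at 15 DAP. The name match missed the regulators kn1, gt1 and ohp1 described above, so these counts do not cover all regulators. Of 6 carbon metabolism genes, adh1 was lower at both stages and mdh4 at 15 DAP, and 4 did not pass at either. The 5 cell cycle and chromatin genes on the list had no call at either stage, and the single translation gene, rpl32 (GRMZM2G110328), did not pass (adjusted p = 0.27 and 0.81). Over all tested genes the share called was the background given above, and nothing particular to these short lists is read from them.

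Several named members passed the threshold at 15 DAP and not at 10 DAP. The largest rise among them was that of glb2 (GRMZM2G026703, 287134209 to 287135872), a storage globulin gene of the embryo, which read 20.6, 27.1 and 39.7 CPM in wild type and 460.3, 303 and 814 CPM in L100 at 15 DAP (log2 fold change 4.17, SE 0.67, adjusted p = 0.0073). At 10 DAP it was under 8 CPM in every library. The seed tonoplast aquaporin gene tip3b (GRMZM2G103983) read 2.24, 4.75 and 3.03 CPM against 25.5, 22.7 and 59.3 CPM (log2 fold change 3.42, SE 0.81, adjusted p = 0.034). Its call ended without any 1 of the 6 libraries of 15 DAP or wild type 10 DAP replicate 3 (adjusted p = 0.053 to 0.12), by DESeq2 (adjusted p = 0.053) and with no filter (adjusted p = 0.062).

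Of the embryo markers other than glb2, ole1 alone had no overlap between the lines at 15 DAP. The summed level of the 5 embryo models, glb2 included, was 913 to 1204 CPM in wild type and 1747 to 2995 CPM in L100 at 15 DAP, and the oil body gene ole1, which lies outside the segment, read 729.9, 849 and 735 against 1346, 1184 and 1699 CPM. The other 3 embryo models overlapped between the lines: glb1 (GRMZM2G067919) read 159, 324 and 255 against 300.1, 254 and 478 CPM (log2 fold change 0.49, adjusted p = 0.64), lec1 read 0.688, 0.863 and 1.97 against 1.44, 1.95 and 1.38 CPM, and GRMZM2G067402 read 2.52, 3.27 and 2.47 against 2.57, 3.2 and 2.68 CPM. The member ole17 (GRMZM2G480954), not on this marker list, had no overlap at 15 DAP either, at 171, 183 and 115 against 409.6, 370.0 and 592 CPM. It was not called (log2 fold change 1.55, SE 0.60, adjusted p = 0.16). None of the embryo markers was at 0 in a library. Their part in the differences of glb2 and tip3b was not tested. At 10 DAP the embryo sums overlapped, at 287 to 481 CPM in wild type and 192 to 609 CPM in L100. GRMZM2G067402 alone was called higher there (log2 fold change 1.32, adjusted p = 0.049), a call lost in 11 of the 12 fits that left out a library. The leaf markers summed to at most 6 CPM in every library.

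A calmodulin gene (GRMZM2G149923, 275154655 to 275156842), which encodes a calcium sensor, read 40.5, 35.3 and 36.5 CPM in wild type and 98.7, 100.4 and 149 CPM in L100 at 15 DAP (log2 fold change 1.63, SE 0.17, adjusted p = 0.00049). At 10 DAP its lines overlapped, at 29.4, 23.3 and 21.5 against 28.9, 30 and 32.9 CPM. The heat shock factor gene Hsf26 (GRMZM2G003489) was under 1 CPM at 10 DAP and read 132, 222 and 36.1 CPM against 7.32, 3.96 and 6.59 CPM at 15 DAP (log2 fold change -4.44, SE 0.60, adjusted p = 0.0032), with a wide spread among the wild-type libraries. The glutathione transferase gene gst5 (GRMZM2G308687) had 143 ± 24.5 CPM in wild type and 56.2 ± 20.1 CPM in L100 at 15 DAP (log2 fold change -1.35, SE 0.28, adjusted p = 0.018), a call that ended without L100 15 DAP replicate 2 or 3 or wild type 15 DAP replicate 2 (adjusted p = 0.051 to 0.073).

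The members called at one stage were also read in the libraries of the other stage. The 113 members called at 10 DAP by at least 2-fold (1.87% of all tested genes were) were read in each library of 15 DAP, as the difference from the wild-type mean of log2(CPM + 0.5), signed by the direction at 10 DAP. Their median in the 3 L100 libraries was 1.10, 1.14 and 1.28, against 1.78 at 10 DAP itself, where the genes had been selected for size. Of the 113, 46 reached the member level in only 1 to 3 groups. The choice by level favoured genes that differ there, also at 15 DAP, so part of these medians is built in. The same limit holds for the shares of members with the same sign below. The wild-type libraries of 15 DAP, taken around their own mean, had medians of -0.02 to 0.04. Centring on that mean keeps these medians small whatever the genes do, so they are no control. In the left block (44 genes) the L100 values were 1.57, 1.31 and 1.20, and from 250 to 275 Mb (45 genes) they were 1.02, 1.07 and 1.29. Such medians were not taken outside the segment. Of members called at 10 DAP at any size, 90.8% had the same sign at 15 DAP. The share was 90.4% on the rest of chromosome 1 and 73.5% on other chromosomes. For calls at 15 DAP read at 10 DAP, the shares were 87.6%, 68% and 72%.

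**Figure D5:**
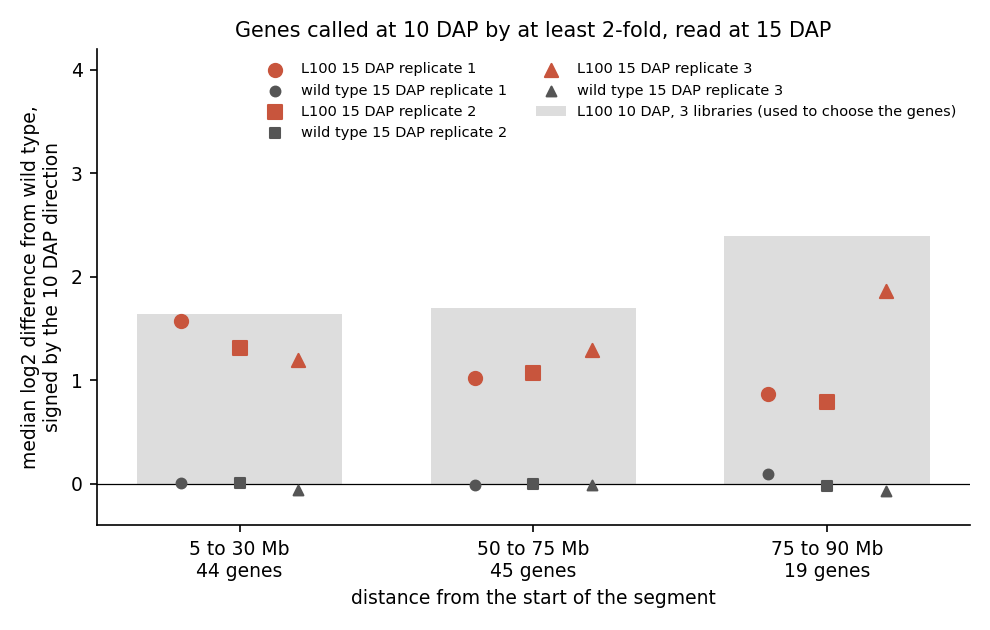
Median log2 difference from wild type of members called at 10 DAP by at least 2-fold, signed by their direction at 10 DAP, in 3 stretches of the segment (distance from its start in Mb). Grey bars are the 10 DAP libraries that chose the genes and red symbols the 3 L100 libraries of 15 DAP. Dark symbols are the 3 wild-type libraries of 15 DAP, which are small by construction because they are centred on their own mean. In the rightmost stretch replicate 3 (1.86) lies above replicates 1 and 2 (0.87 and 0.79).

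From 275 to 290 Mb, a limit set after the values were seen, the L100 libraries of 15 DAP stood apart from each other. The 19 genes there had medians of 0.87 and 0.79 in replicates 1 and 2 and of 1.86 in replicate 3. In the reverse reading, the 121 members called at 15 DAP by at least 2-fold (3.79% of all tested genes were) had medians of 1.28, 1.42 and 1.10 in the 3 L100 libraries of 10 DAP. Of the 121, 51 reached the member level in only 1 to 3 groups, so the same limit holds. In the stretch between the blocks, the 4 genes called at 10 DAP by at least 2-fold had medians of 0.44, 0.87 and 0.68 in L100 at 15 DAP.

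Some members of the right block were nearly absent from all L100 libraries of 10 DAP but not from all of 15 DAP. GRMZM2G400092 (265078286 to 265086556) read 56, 62.6 and 56.6 CPM in wild type and 0.116, 0.107 and 0.104 CPM in L100 at 10 DAP (log2 fold change -8.97, SE 1.27, adjusted p = 0.0055). At 15 DAP it read 52.4, 62.6 and 66.6 CPM in wild type and 19.8, 22.2 and 0.23 CPM in L100 replicates 1, 2 and 3. Replicates 1 and 2 thus lay between 0 and the wild-type level and replicate 3 near 0, and the gene was not called at 15 DAP (adjusted p = 0.13).

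The same order was seen in other members, picked after their values were seen. In L100 at 15 DAP, Maize_newGene_172 read 1.75, 2.85 and 0.0767 CPM in replicates 1, 2 and 3, GRMZM2G031138 read 9.33, 10.6 and 2.91 CPM and Maize_newGene_194 read 1.31, 1.11 and 0 CPM. Their means in wild type at 15 DAP were 5.54, 19 and 3.12 CPM. At 10 DAP all 3 were lower in L100 (adjusted p = 0.016, 0.0015 and 0.012), the call of Maize_newGene_172 ending without L100 10 DAP replicate 1 or 2 or wild type 10 DAP replicate 2 (adjusted p = 0.051 to 0.059).

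Other members split differently. Maize_newGene_174 was at 0 CPM in all L100 libraries of 10 DAP. At 15 DAP it read 1.94, 0.0695 and 0.23 CPM in L100 replicates 1, 2 and 3, so replicate 2 was lowest. GRMZM2G055054 (281816966 to 281823181) read 10.8, 10.4 and 10.4 CPM in wild type at 10 DAP, and 0, 0 and 14.3 CPM in L100 replicates 1, 2 and 3. At 15 DAP it read 20.3, 17.8 and 17.9 against 0, 0.139 and 0 CPM. GRMZM2G127521 (268409738 to 268412881) split the wild-type libraries instead, with 0.19, 0 and 19.3 CPM at 10 DAP and 0.115, 17.8 and 21.6 CPM at 15 DAP, and was under 0.5 CPM in every L100 library. Counted over the whole table, genes above 3 CPM in a library whose 6 L100 libraries spanned over 4 units of log2(CPM + 0.3) while the 6 wild-type libraries spanned under 1.5 made up 0.823% of members, against 1.31% on the rest of chromosome 1 and 1.13% on other chromosomes, and genes with the lines exchanged made up 0.374% of members (5 genes), against 0.0843% (2 genes) and 0.298%.

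Near the level that made a gene a member, the lowest members were AC217910.3_FG001, AC234528.1_FG001 and GRMZM2G045678, with a highest group mean of the deposited normalized signal of 17.04, 17.16 and 17.22. The nearest models left out were Maize_newGene_390, GRMZM2G438960 and Maize_newGene_171, with 16.93, 16.79 and 16.74. Of the members, 1113 reached the level in all 4 groups. Of the 1113, 10.5% were called at 10 DAP and 14.2% at 15 DAP, and of the 214 tested members that reached it in 1 to 3 groups 21.5% and 23.8% were called. A member that reached the level only through the group where it was high had to differ, so the latter shares are no support. The same limit holds for the counts by direction above. Those of the blocks and of the Maize_newGene members were not split by the number of groups at the level.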

How the data were processed

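RNA of whole maize seeds was measured in 12 libraries, 3 for each line and stage. The authors deposited, per library, a count and a normalized value for each gene model. The expected counts are whole numbers that the authors' files give per model, read here as rounded estimates since many models have a count of 1 beside a normalized value near 0. The normalized signal in the deposited files is the count estimate times 1 factor per library, inferred from the values, and how that factor was set is not given in the sources used here. Bowtie 0.12.2 and build B73 RefGen_v3 are named in the submitters' processing notes. No quantifier, annotation release or strand setting is given in the sources used here.

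Counts were fitted in edgeR 4.0.16 (R 4.3.3) with TMM scaling, its default filter on low expression and the robust quasi-likelihood F test, with 1 mean per group over all 12 libraries. P-values are two-sided and adjusted by Benjamini-Hochberg over all 24941 tested genes, and a gene was called at an adjusted p of at most 0.05. Levels are TMM-scaled CPM, and ± gives the SD of 3 libraries. The rule for named genes took members with no overlap between the lines and at least 5 CPM (the 5 largest changes per stage and direction), the 6 largest per direction among those called at both stages, members at 0 counts in one line, the 3 smallest interaction p per direction, the 3 largest named changes per stage and direction, the 5 most abundant members, those nearest the level of 17, and the members of 6 functional lists. The text gives the part of these that its results turn on, and the chaperone list matched 0 members. The members, lists and block limits were chosen with earlier results of these data known. Of the 1337 members, 858 matched the RefSeq NAM-5.0 gene table, 22 of them more than 1 entry, and that table was used for names only. Alternatives were DESeq2 1.42.0, other scaling and filters, other member levels, a replicate block, single-stage fits and leaving out each library. The code was tested on simulated data.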

Additional observations from a re-analysis of the deposited data

Results flagged for a closer look

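In 7 members the line difference itself differed between the stages by edgeR's interaction test with Benjamini-Hochberg adjustment (0.528% of members, against 0.545% of all tested genes). The values are the log2 fold change at 15 DAP minus that at 10 DAP. GRMZM2G472226 (275834357 to 275835674) had the largest, 4.45 (SE 0.67, adjusted p = 0.023), with log2 fold changes of -4.10 at 10 DAP and 0.35 at 15 DAP. GRMZM2G149923, the calmodulin gene, differed by 1.32 (SE 0.24, adjusted p = 0.042), GRMZM2G055037 by 1.24 (SE 0.22, adjusted p = 0.042) and GRMZM2G056815 by 1.13 (SE 0.22, adjusted p = 0.047). The other 3 went down: GRMZM2G058227 by -2.25 (SE 0.40, adjusted p = 0.042), GRMZM2G429928 by -1.77 (SE 0.32, adjusted p = 0.042) and GRMZM2G036765 by -1.06 (SE 0.20, adjusted p = 0.045). At an unadjusted p under 0.05, 245 members (18.5%) and 16.6% of all tested genes had such a difference. The adjusted values lie close to the threshold, and the number of members called ranged from 0 to 14 when 1 library was left out.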

How the results depend on the processing

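No called value changed sign under an alternative run. Among single genes, 22 values of 13 gene and stage results changed sign, none of them called before or after, such as glb2 (GRMZM2G026703) at 10 DAP, at 0.09 and at -0.94 without L100 10 DAP replicate 1. DESeq2 called 255 members at 10 DAP, 139 at both stages and 86 for the interaction. With a change of at least 2-fold required, 121 members were called at 15 DAP and 57 at both stages, and with library totals 3 were called for the interaction. The share of members called minus that of other chromosome 1 genes was 10.1 percentage points at 10 DAP, and 12.2 by DESeq2, 8.01 with a replicate block and 7.37 with 2-fold required. At 15 DAP it was 7.01, and 4.24 with 2-fold required. Leaving out 1 library gave 92 to 213 members at 10 DAP, 110.0 to 216 at 15 DAP, 59 to 93 at both stages and 0 to 14 for the interaction, and differences in share of 6.3 to 11.6 and 4.95 to 7.11 percentage points. Over all tested genes, same-numbered libraries of the lines did not deviate together (correlation -0.113 to 0.0528). A pairing that acts on few genes would not show in this, so whether the numbers pair the libraries is unknown. The replicate block left 122, 151, 64 and 0 calls at 10 DAP, at 15 DAP, at both and for the interaction. With it 11 calls of genes the text names were lost (adjusted p = 0.051 to 0.086), among them adh1 and MYB167 at 10 DAP, hon110 at both stages and bHLH17 and tip3b at 15 DAP. The 2 blocks had a higher share of calls than the stretch between them with each test, scaling, filter and fit tried and without each library, for example with 94, 10 and 146 calls at 10 DAP by DESeq2. The block limits had been drawn from the calls of these same libraries and were kept in each run. This order is therefore a description and no support for the blocks. The causes of these changes were not tested. With 3 libraries a group, differences of 2-fold and more can go uncalled. In the simulated counts, 37% of 2-fold and 74% of 4-fold changes were called at 10 DAP. At 15 DAP 35% and 78% were called. Of the simulated calls, 3.5% and 6.6% were false at the 2 stages.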
